A study of Mus musculus with 2 samples.

Results

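Lysophosphatidylcholine breakdown, transport and signalling was followed in mouse eye cups through 10 genes: autotaxin (Enpp2), Enpp6, Pnpla6, Lypla1, Lypla2, Spns1, Spns2, Lpar1, Plpp3 and S1pr1. The members were every probe set whose platform annotation gave one of these symbols alone. The rule found 15 probe sets for 9 of the 10 genes, among 34945 probe sets for 18193 genes on the array, controls left out. No probe set of the annotation used carried the Enpp2 symbol, so Enpp2 was not analysed here. Genes are called measured here if either value reached the median intensity of its own array, 93.4 on the array labelled knockout and 94.2 on the wild-type array. Of the members, 8 genes and 11 probe sets passed this floor. In all, 11568 genes were measured.

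The study compared Mfsd2a KO with wild-type eye cups, both from mice at postnatal day 13. Each genotype was 1 pool of RNA from 6 animals, read on 1 Affymetrix Mouse 430 2.0 array. The cornea, lens and optic nerve had been taken away, so the cup that was left held retina, pigment epithelium, choroid and sclera. How Mfsd2a was altered, the strain and the sexes pooled are not given in the sources used here, and no treatment is named for either group. Without a replicate of either genotype, every difference is between 2 pools and carries no p-value. Precision is limited by the number of arrays.

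Lysophosphatidylcholine is phosphatidylcholine that has lost one fatty acid. Mfsd2a carries it, loaded with fatty acids such as docosahexaenoic acid, into the brain and the eye. Inside and outside cells it is either rebuilt into phosphatidylcholine, stripped of its last fatty acid by lysophospholipases, or cut by autotaxin to lysophosphatidic acid, a signalling lipid. Lysophosphatidic acid and sphingosine-1-phosphate act through related families of G protein-coupled receptors, in neural cells and vessels among others, and lipid phosphate phosphatases end both signals.

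The Mfsd2a probe set read 244 on the array labelled knockout and 181 on the wild-type array, a log2 difference of 0.43. The probe set thus does not bear out the label. How the gene was altered is not given, and where the probes lie relative to the change was not analysed here. The Mfsd2a KO sample is therefore called the array labelled knockout. Each direction below rests on that label. For retina and pigment epithelium the tissue label matched defining markers. Rod transducin Gnat1 read 15928 on the array labelled knockout and 16823 in wild type. The pigment epithelial isomerase Rpe65 read 3301 on the array labelled knockout and 3484 in wild type. The Mueller glial glutamine synthetase Glul read 9405 on the array labelled knockout and 9678 in wild type. For the cornea and lens, said to be taken away, 6 of 6 cornea and conjunctiva markers and 4 of 7 lens markers were also measured. Whether tissue was left behind was not tested. The 3 measured Y-linked genes had a median log2 difference of 0.88 and Xist, expressed in females, differed by -0.70. A different mix of sexes in the pools could not be told apart from genotype in any difference below. The 3' to 5' ratio of beta-actin, a sign of RNA integrity, was 1.44 on the array labelled knockout and 1.49 in wild type.

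The lysophospholipid genes differed little between the pools. None of the 8 measured members was 1.2-fold higher or lower, a size reached by 2.96% of all measured genes (1.79% higher and 1.17% lower on the array labelled knockout). Their log2 differences ran from -0.17 for Lpar1 to 0.12 for Spns2, or at most 1.12-fold. Of the 8, 6 read lower and 2 higher on the array labelled knockout. Their median log2 difference was -0.072, beside 0.014 for all measured genes, of which 42.4% read lower. At the smaller size of 1.1-fold, 2 members, Lpar1 and Plpp3, read lower and 0 higher, beside 6.6% and 9.8% of all measured genes. Both directions together held 16.4% of measured genes at that size. At 1.5-fold there were 0 members on either side, beside 0.138% of measured genes higher and 0.0864% lower (0.225% together). Genes were read here by their brightest probe set.

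**Figure D1:**
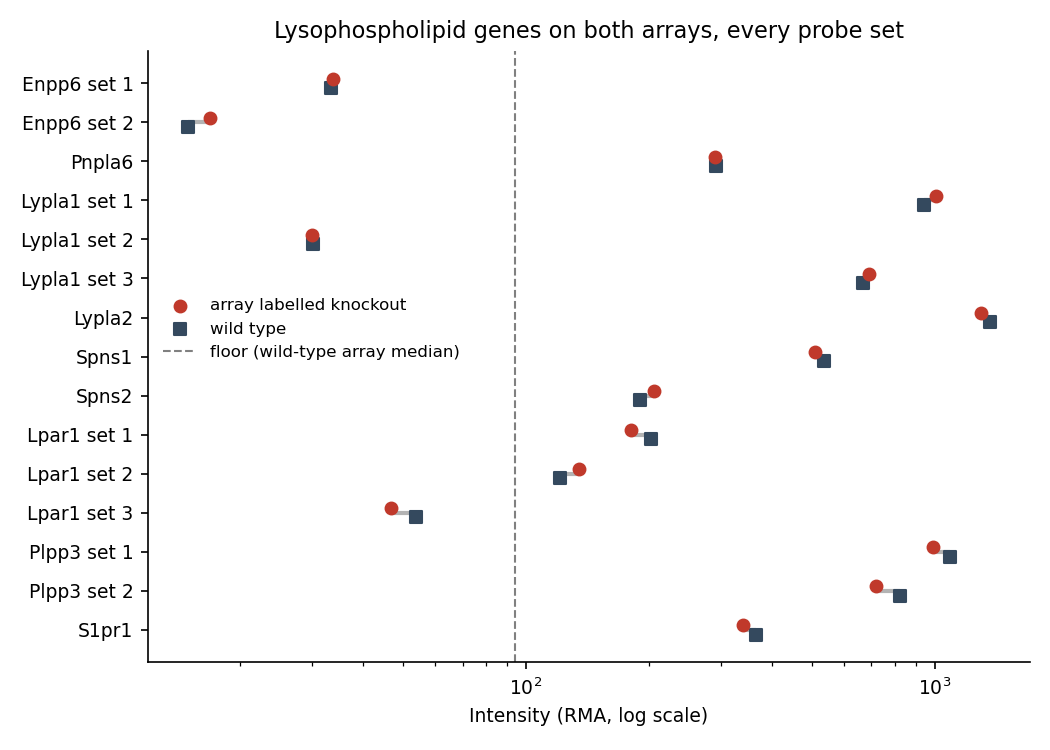
Intensity (log axis) of each of the 15 member probe sets on the array labelled knockout (circles) and on the wild-type array (squares), 1 pool each. Set 1 is the brightest probe set of a gene, and the dashed line is the floor of the wild-type array, 94.2. Every pair lies close together, and 4 pairs, both sets of Enpp6 and 1 each of Lypla1 and Lpar1, lie below the floor.

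A yardstick for such small differences came from probe sets that read the same gene. Over 5201 measured genes with several probe sets above the floor, the log2 differences of probe sets of one gene had an SD of 0.0886. Probe sets of one gene lay on both sides of 0 in 45.5% of these genes. Whether this spread is only technical was not tested, and it says nothing of variation between animals. All 9 members with a value had differences within the central 95% of measured genes (-0.21 to 0.23) in each of their probe sets.

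Among the enzymes that break down lysophosphatidylcholine, Enpp6 is a choline-specific phosphodiesterase, and in mouse brain it marks newly forming oligodendrocytes. Its brighter probe set (1438785_at) read 33.7 on the array labelled knockout and 33.3 in wild type, and its dimmer one (1436090_at) 16.9 on the array labelled knockout and 14.9 in wild type. Both lay below the floor on both arrays, where the log2 differences of 0.014 (brighter) and 0.18 (dimmer) rest on weak signal. The optic nerve, where oligodendrocytes lie, had been cut away. Of 13 oligodendrocyte and myelin markers with a probe set, 5 were measured, with a median log2 difference of 0.019, and the summed intensity of the 13 was 2465 on the array labelled knockout and 2512 in wild type. Of the 8 below the floor, 7 read lower on the array labelled knockout, from -0.54 for Olig1, and over all 13 the median was -0.15. Dim genes leaned lower in general. With no floor, 3.37% of all genes were 1.2-fold lower and 2.23% higher, beside 1.17% and 1.79% of measured genes. The median of all genes was then 0. The 8 probe sets of Mbp, the myelin basic protein gene, ran from -2.00 to 0.14, with the brightest at 0.14. None of these markers had an intensity of 0, but neither did any probe set, so this says nothing of the cells. The lowest value was 5.07 on the array labelled knockout and 5.15 in wild type. The part of oligodendrocytes in the Enpp6 value was not tested.

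Pnpla6, the neuropathy target esterase, strips both fatty acids from phosphatidylcholine at the endoplasmic reticulum, and in humans its mutations cause retinal and neurological disease. Its 1 probe set (1416517_at) read 290.0 on the array labelled knockout and 293 in wild type. With a log2 difference of -0.012 it lay closest to 0 among the measured members.

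Lypla1 and Lypla2 were first described as lysophospholipases and are also acyl-protein thioesterases, which remove palmitate from proteins. The brightest set of Lypla1 (1448244_at) read 1009 on the array labelled knockout and 940.1 in wild type, a log2 difference of 0.10. A second set (1453949_s_at), whose name marks possible cross-hybridisation, read 691 on the array labelled knockout and 666 in wild type (0.052), and another below the floor (1431607_at) read 30.0 on the array labelled knockout and 30.1 in wild type (-0.0040). The sign was thus the same in both sets above the floor. The single set of Lypla2 (1417433_at) read 1297 on the array labelled knockout and 1363 in wild type, a log2 difference of -0.072. The pair differed in sign, and their log2 differences lay 0.17 apart. This gap is 1.38 times the SD of 0.125 that the spread above gives for the difference between 2 probe sets of one gene.

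Of the transporters, Spns1 exports lysophosphatidylcholine from lysosomes and Spns2 exports sphingosine-1-phosphate from cells, best known in endothelium. Spns1 (1431284_a_at) read 510 on the array labelled knockout and 536 in wild type, a log2 difference of -0.073. Spns2 (1451601_a_at) read 206 on the array labelled knockout and 190 in wild type, a log2 difference of 0.12 and the highest among the measured members. Of all 22912 probe sets above the floor, 23.7% were at least as far from 0 as Spns2 and 45.2% as far as Spns1. The log2 differences of the 2 transporters lay 0.19 apart, or 1.54 times the same SD.

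The receptors and the phosphatase that limits their ligands read lower in their brightest sets. Lpar1, the first described receptor for lysophosphatidic acid, was read by 3 probe sets that did not share a sign. The brightest (1448606_at) read 180 on the array labelled knockout and 203 in wild type, a log2 difference of -0.17. The next (1417143_at), designed on the same transcript accession and also above the floor, read 135 on the array labelled knockout and 121 in wild type, a log2 difference of 0.15. The third (1426110_a_at) lay below the floor at 46.8 on the array labelled knockout and 53.7 in wild type (-0.20). The 2 sets above the floor were 0.32 apart, 2.55 times the SD, so Lpar1 has no settled direction here, and the mean of its 3 sets was -0.071.

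Plpp3, a cell-surface enzyme that removes the phosphate of lysophosphatidic acid and sphingosine-1-phosphate, had 2 probe sets above the floor and read lower in both. The brighter (1429514_at) read 993 on the array labelled knockout and 1092 in wild type, a log2 difference of -0.14. The other (1448908_at) read 717 on the array labelled knockout and 824 in wild type, a log2 difference of -0.20 or 1.15-fold. Among all probe sets above the floor, 18.5% were at least as far from 0 as -0.14, and 7.66% as far as -0.20. Plpp3 was the only member with several probe sets above the floor that all read lower.

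S1pr1, the sphingosine-1-phosphate receptor that steadies new vessels, was read by 1 probe set (1423571_at), at 339 on the array labelled knockout and 366 in wild type. Its log2 difference of -0.11 was reached or passed, in either direction, by 28.0% of probe sets above the floor.

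**Figure D2:**
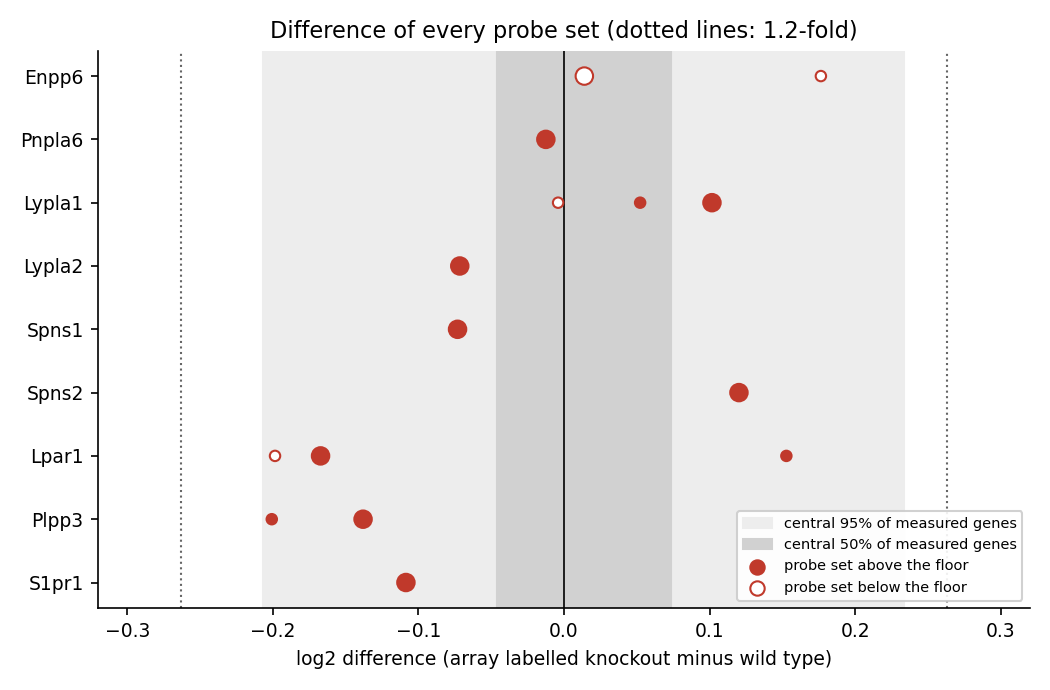
The log2 difference (array labelled knockout minus wild type) of every member probe set, filled above the floor and open below it, with a larger symbol for the brightest set of a gene. Shading marks the central 95% (-0.21 to 0.23) and central 50% (-0.046 to 0.073) of measured genes and dotted lines mark 1.2-fold. No probe set reaches a dotted line, and the 2 filled symbols of Lpar1 lie on opposite sides of 0.

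Markers of vessel cells read lower in the same pool as Plpp3 and S1pr1. Of 11 measured endothelial markers, 9 were below 0 and 1 above, with a median log2 difference of -0.14. The remaining marker read 330 on both arrays, a log2 difference of 0. Their summed intensity, over the 11 with a probe set, was 4092 on the array labelled knockout and 4441 in wild type, with Pecam1 at -0.14 and Cdh5 at -0.018. All 6 measured pericyte and smooth muscle markers were below 0, with a median of -0.11 and a summed intensity over 8 genes of 6098 on the array labelled knockout and 6606 in wild type. Rgs5 differed by -0.13 and Pdgfrb by -0.026. None of these markers had an intensity of 0, but no probe set of either array did, so this says nothing of the cells. In RNA from whole tissue, fewer cells of a type and less RNA per cell cannot be told apart, and the part of vessel cells in the Plpp3 and S1pr1 values was not tested. Spns2, also known from endothelium, read higher beside them.

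Markers of other tissues of the eye and its borders also differed between the pools. Cornea and conjunctiva markers were below 0 in 6 of 6, with a median of -0.46 and a summed intensity of 1111 on the array labelled knockout and 1461 in wild type. Pigment cell markers were below 0 in 6 of 6, with a median of -0.16, and pigment epithelial markers in 6 of 7, with a median of -0.087. Skeletal muscle markers were below 0 in 5 of 7, with a median of -0.23. Microglia and macrophage markers were above 0 in 7 of 8, with a median of 0.36 and a summed intensity of 2915 on the array labelled knockout and 2509 in wild type. The medians of rod, Mueller glia, lens and connective tissue markers lay between -0.019 and -0.0028. Their part in the values of the members was not tested.

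**Figure D3:**
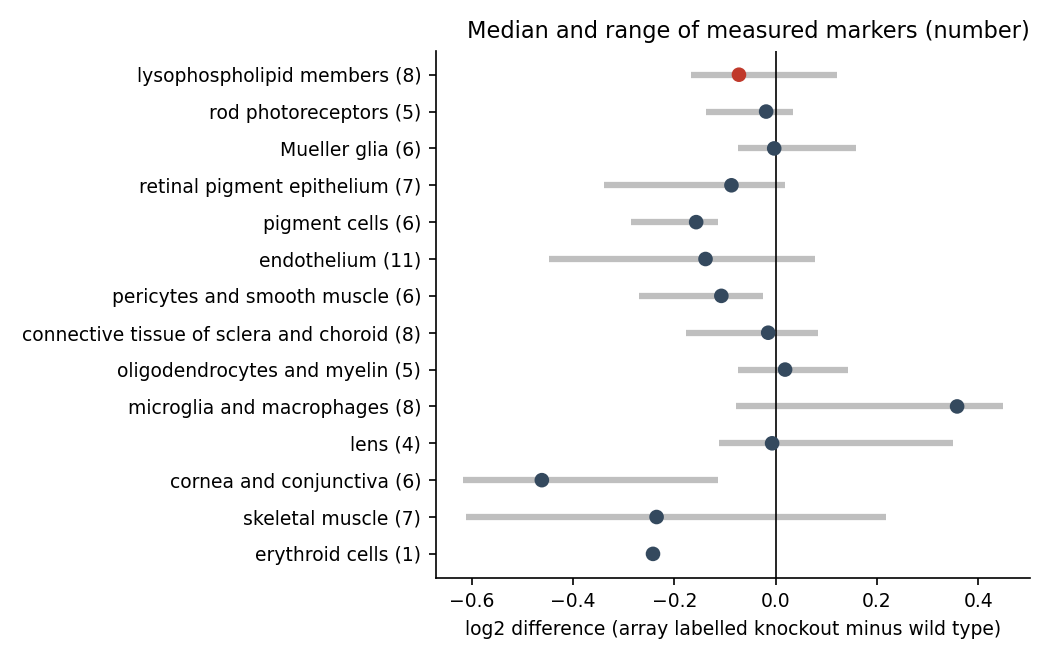
Median (dot) and range (bar) of the log2 difference, array labelled knockout minus wild type, over the measured genes of each list, with their number in brackets. The 8 lysophospholipid members (top, median -0.072) run from -0.17 to 0.12, a narrower range than that of endothelial, microglial, corneal or muscle markers and a wider one than that of rod, Mueller glia, pigment cell, pericyte, connective tissue or oligodendrocyte markers.

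Promoter sequence could be set beside these values for 7 of the 10 members, for which RefSeq windows of 300 bases (250 before and 50 after a gene's start, build GRCm38.p6) were at hand, 11 windows in all because Lpar1 and Pnpla6 have several starts. The windows of Plpp3, whose probe sets both read lower, and of Spns2, which had the highest difference of the measured members, are shown, 5' to 3' on the gene's strand. Plpp3 lies at chr4:105157097-105157396 on the plus strand and Spns2 at chr11:72474978-72475277 on the minus strand. Capitals mark a match to the GC box (GGGCGG, either strand).
Plpp3: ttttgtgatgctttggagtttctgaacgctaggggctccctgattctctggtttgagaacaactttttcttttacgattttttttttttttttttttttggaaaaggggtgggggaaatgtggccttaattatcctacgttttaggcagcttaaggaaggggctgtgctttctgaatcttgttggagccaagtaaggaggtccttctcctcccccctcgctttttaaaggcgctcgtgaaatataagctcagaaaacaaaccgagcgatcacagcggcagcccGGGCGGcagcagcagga
Spns2: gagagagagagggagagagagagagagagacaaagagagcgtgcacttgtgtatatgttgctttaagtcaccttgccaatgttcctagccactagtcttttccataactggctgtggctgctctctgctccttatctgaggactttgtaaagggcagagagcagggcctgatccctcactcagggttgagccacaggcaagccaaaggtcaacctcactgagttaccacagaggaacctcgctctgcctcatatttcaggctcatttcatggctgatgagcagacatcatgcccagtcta
The GC box was found in 5 of the 11 member windows, in Lpar1, Lypla2, Plpp3 and Pnpla6, and in 35.7% of all 32851 windows. The windows were also searched on both strands for a sterol regulatory element (TCACNCCAC), the motif of the SREBP factors that drive lipid synthesis. It was in 0 of the 11 member windows and in 1.24% of all windows. The E-box CACGTG (7.15% of all windows) and the TATA box TATAAA (13.6%) were likewise in 0 of the 11. With no match to these, no site was counted under more than one name. A match is a run of letters and not a shown binding site, and its absence covers only these windows.

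The wider pathway was described by a list of 56 other genes, written from general knowledge. Of these, 52 had a probe set and 37 were measured. At the 1.2-fold size 1 read higher and 1 lower on the array labelled knockout, 15 were above 0 and 22 below, and the median log2 difference was -0.049. With the floor at the 70th percentile that median was 0.016 over 27 genes, beside 0.017 for all genes. The background of 1.79% higher and 1.17% lower would come to less than 1 gene in each direction, so these counts are near it.

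The gene past 1.2-fold on the higher side was Lipg, endothelial lipase, which releases lysophosphatidylcholine from lipoproteins. It read 97.2 on the array labelled knockout and 71.8 in wild type, a log2 difference of 0.44 or 1.35-fold. Its wild-type value lay below the floor, as did both arrays' values of its other 2 probe sets, which differed by 0.46 and 0.025. On the lower side was Mfsd2b, a relative of Mfsd2a that exports sphingosine-1-phosphate from red blood cells and platelets. It read 85.4 on the array labelled knockout and 106 in wild type (-0.31). The value on the array labelled knockout lay below the floor, so it passed only through wild type, and its other set, below the floor on both arrays, differed by -0.14. The erythroid gene Alas2, the 1 measured marker of red cell precursors, differed by -0.24 in the same direction, at 124 on the array labelled knockout and 147 in wild type, and the summed intensity of the 3 erythroid markers with a probe set was 184 on the array labelled knockout and 213 in wild type. The part of blood in the Mfsd2b value was not tested. Neither Lipg nor Mfsd2b was measured once the probe sets of each gene were averaged, where they differed by 0.31 and -0.22, and neither reached a floor at the 70th percentile.

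By role, the 11 measured genes listed with the lysophospholipases and lysophospholipase D enzymes had a median of -0.049. They ran from -0.24 to 0.049, and the lowest was Acp6, a lysophosphatidic acid phosphatase. Gde1, a glycerophosphodiester phosphodiesterase, read 2617 on the array labelled knockout and 2707 in wild type (-0.049), and Abhd12, a lysophosphatidylserine lipase, 1942 on the array labelled knockout and 2052 in wild type (-0.080). The 9 measured enzymes that release lysophosphatidylcholine had a median of -0.033. Pla2g7, the platelet-activating factor acetylhydrolase, read 2172 on the array labelled knockout and 2365 in wild type (-0.12), and the secreted phospholipase Pla2g5 1116 on the array labelled knockout and 1142 in wild type (-0.033). Among the autotaxin relatives, Enpp4 differed by 0.15 and Enpp5 by -0.12. The phosphatase Plpp2, a relative of Plpp3, read 2148 on the array labelled knockout and 2374 in wild type (-0.14), whereas Plpp1 differed by 0.043.

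Other receptors were mostly dim. Of 4 further lysophosphatidic acid receptors with a probe set only Lpar6 was measured, at 157 on the array labelled knockout and 169 in wild type (-0.11). S1pr3, a sphingosine-1-phosphate receptor, read 925 on the array labelled knockout and 780 in wild type (0.24), with further sets at 0.21 and -0.026. S1pr2 read 213 on the array labelled knockout and 244 in wild type (-0.20), in a set whose name marks possible cross-hybridisation. The other S1pr2 set, below the floor, differed by -0.14. The 8 measured genes of sphingosine-1-phosphate synthesis, breakdown and transport had a median of -0.098. The phosphatase Sgpp1, which degrades sphingosine-1-phosphate, read 575 on the array labelled knockout and 499 in wild type (0.21), with its 3 sets between 0.053 and 0.23, and the exporter Abcc1 differed by 0.036. None of the 3 other lysophospholipid receptors with a probe set was measured.

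**Figure D4:**
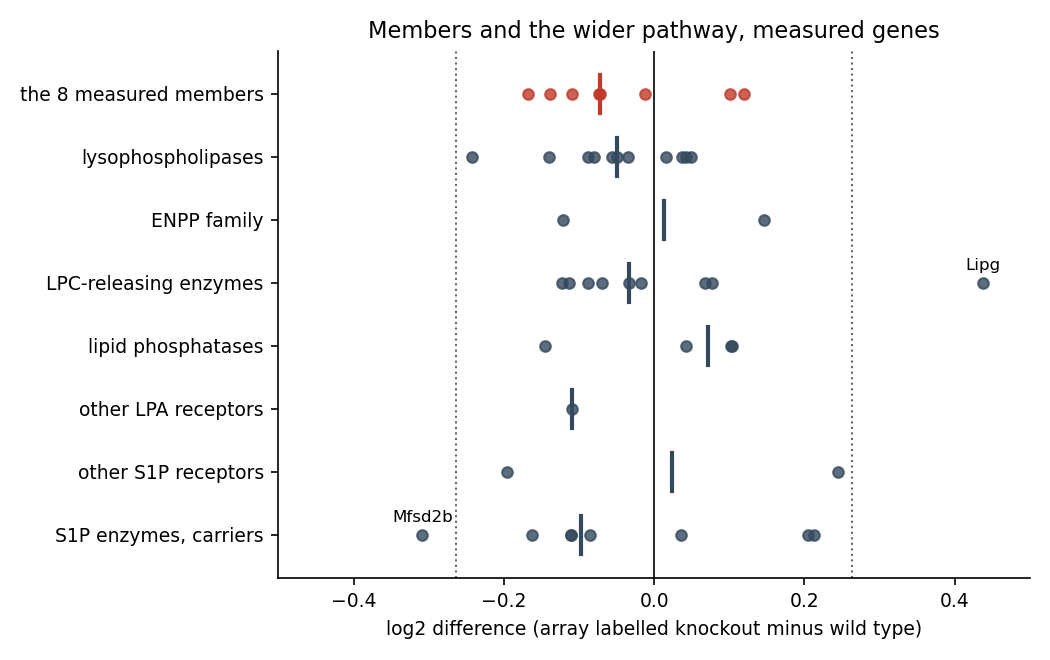
The log2 difference (array labelled knockout minus wild type) of the 8 measured members (top row) and of 37 measured genes of the wider pathway by role, 1 dot a gene, with a bar at each median and dotted lines at 1.2-fold. LPC is lysophosphatidylcholine, LPA lysophosphatidic acid and S1P sphingosine-1-phosphate. Only Lipg (0.44) and Mfsd2b (-0.31) pass a dotted line.

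Of the members, 3 lie on chromosome 4 with Mfsd2a. Between each of them and Mfsd2a lay many measured genes: 106 for Plpp3, 138 for Lypla2 and 202 for Lpar1. The 705 other measured genes of the chromosome had a median log2 difference of 0.013.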

How the data were processed

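Eye cup RNA of 2 pools, 6 animals each, was read on 1 array per genotype. The authors deposited linear intensities for 45101 probe sets, made with Partek 6.6 and RMA per the submitters' processing notes, in an order and with settings not given in the sources used here. RMA equalises the arrays' distributions, which removes an overall difference between the pools, and shrinks differences of dim probe sets. Log2 values were taken, and differences are the array labelled knockout minus wild type. The platform annotation gave 1 symbol to 34958 probe sets, and an Entrez identifier in the RefSeq table (GRCm38.p6) was found for 34754 of them. The 64 Affymetrix controls were left out of genes and floor. A gene was read by its brightest probe set. With no replicates, genes were counted past 1.2-fold, with no test.

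The members, lists and sizes were chosen with earlier results of these data known. Named were all members, Mfsd2a, of each pathway group the genes past 1.2-fold and the 2 with the highest mean level, and the first 2 markers of lists discussed by gene. Outside this rule, Olig1 and Acp6 were named as the lowest values of their sets, and the genes under other observations after their values were seen. The alternatives tried were the mean of probe sets, no floor or one at the 70th percentile, sizes of 1.1-fold and 1.5-fold, no _s_at or _x_at sets, and removal of a loess trend (span 0.3, 3 iterations). Software was statsmodels 0.14.6, pandas 2.3.3 and numpy 2.4.6 under Python 3.11.15. The steps were tested on simulated data, with added differences larger than those of any member.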

Additional observations from a re-analysis of the deposited data

How the results depend on the processing

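No paired analysis was possible because only 1 pooled array was read for either genotype. The 9 members with a value kept their sign with the mean of probe sets, without _s_at and _x_at sets and with the loess trend removed. Only Lpar1 moved by more than the SD between probe sets of one gene, to -0.071 with the mean of probe sets. No member was 1.2-fold different under any floor, probe set rule or trend removal run, nor at 1.5-fold. At 1.1-fold, 2 members read lower, beside 6.6% of all measured genes. Their median stayed between -0.091 and -0.071. In the wider pathway the counts of 1 higher and 1 lower gene became 0 and 0 with the mean of probe sets, at the 70th percentile floor and at 1.5-fold. At 1.1-fold they were 5 and 6 of 37, beside 9.8% and 6.6% of all measured genes. With no floor 2 of 52 were higher and 1 lower, beside 2.23% and 3.37% of all genes. The pathway median was 0.016 at the 70th percentile floor, beside 0.017 for all genes, where fewer genes are measured, and between -0.064 and -0.048 under the other alternatives. With the mean of probe sets and the higher floor, fewer genes were counted (32 and 27 of the list). At 1.5-fold, Lipg (1.35-fold) and Mfsd2b (1.24-fold) fell short of the size. With no floor the gene added on the higher side was Gpr34 (0.59), described below. For any other change the cause was not tested. Both sets of Enpp6 lay below the floor, and detection calls were not used here.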

Other observations

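Gpr34, a lysophosphatidylserine receptor of microglia, lay below the floor and read 27.8 on the array labelled knockout and 18.4 in wild type, a log2 difference of 0.59. Microglia and macrophage markers read higher in the same pool, and their part in the Gpr34 value was not tested. Cx3cr1 differed by 0.41 in its brightest probe set and 0.014 in its other. Csf1r differed by 0.024 in its brightest set, with its 3 sets between 0.024 and 0.15. Sgpl1, the lyase that breaks down sphingosine-1-phosphate for good, read 308 on the array labelled knockout and 266 in wild type (0.21), while its other probe set, below the floor, read 52.6 on the array labelled knockout and 59.4 in wild type (-0.18). The mitochondrial lysophosphatidic acid phosphatase Acp6 read 140 on the array labelled knockout and 166 in wild type (-0.24), the lowest value of its group. These 3 genes were chosen after their values were seen.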
